A study of Mus musculus with 26 samples.

Results

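The Polycomb genes followed here in differentiating mouse embryonic stem cells are Ezh1, Ezh2, Eed, Suz12, Jarid2, Mtf2, Phf19, Cbx2 and Cbx7. Their rows were found by gene symbol, and the set was chosen with earlier results of these data known. They are 9 of 55471 genes in the deposited count table. All 9 had 1 row in the table, and all passed the filter on low counts. RNA was sequenced from the mouse embryonic stem cell (ESC) line KH2 at days 0, 2 and 4 of differentiation with retinoic acid. The groups were NAP1L1 alpha knock-out cells (alpha-KO), cells with a knock-out of NAP1L1 as a whole (full-KO) and wild-type cells (WT), all in the KH2 background and all given retinoic acid after day 0. NAP1L1 is a histone chaperone of H2A and H2B. Each group had 3 libraries per day, except full-KO at day 0 with 2, which makes 26 libraries. Within a knockout genotype all library names start alike, so each genotype may be 1 cell line, and line and genotype cannot be told apart. No later day has libraries without retinoic acid, so days in culture and retinoic acid cannot be told apart either.

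Polycomb proteins keep developmental genes silent through 2 kinds of complex. Polycomb repressive complex 2 (PRC2) methylates histone H3 at lysine 27 through EZH2 or its relative EZH1, and needs EED and SUZ12 for its activity. Accessory proteins define its forms: MTF2 and PHF19 (Polycomb-like proteins) in one, JARID2 in the other. Canonical PRC1 binds the methylated histone through a CBX protein. In mouse ESC the CBX protein of canonical PRC1 is mainly CBX7, and during differentiation CBX2 and CBX8 among others take a larger part. This exchange is often called the Cbx switch.

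Levels are given as CPM, read counts scaled to library size (in edgeR, with TMM). Total counts per library ran from 13537267 to 20569706. Reads of Jarid2, the most deeply counted of the 9 genes, numbered 2189 to 15774 per library, against 21 to 216 for Phf19, whose values are the least precise. Nap1l1, the targeted gene, averaged 599.2 CPM in alpha-KO, 398.9 CPM in full-KO and 1025 CPM in WT at day 0, and 342.7, 227 and 393 CPM in the same order at day 4. The 5 ESC markers (Pou5f1, Sox2, Nanog, Zfp42 and Esrrb) summed to 2795 to 2833 CPM in alpha-KO, 3095 to 3110 in full-KO and 1964 to 2047 in WT at day 0, so the defining markers of ESC were present in all genotypes. A gene is said to have risen or fallen where edgeR's quasi-likelihood test gave a Benjamini-Hochberg adjusted p under 0.05 over the 18412 genes tested. After a log2 fold change, ± gives the SE, and after a CPM or a share it gives the SD. In such bulk samples, fewer cells that express a gene and less RNA per cell cannot be told apart.

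In WT cells 8 of the 9 genes were lower at day 4 of retinoic acid than at day 0, and Cbx2 alone was higher. The share called among all genes in that comparison was 77.4% (36.7% down and 40.7% up), so being called was common. The median log2 fold change of the 9 genes was -1.49, against 0.10 for all genes. At day 2 of WT, 1 gene was higher and 7 were lower than at day 0, where 70.7% of all genes were called. Between day 4 and day 2 of WT, 1 was higher and 7 were lower, with 59.4% of all genes called. In alpha-KO, 1 gene was higher and 8 were lower than at day 0 both at day 2 (68% of all genes called) and at day 4 (76% called), and 1 was higher and 6 were lower at day 4 than at day 2 (58.2% called). In full-KO, 2 were higher and 6 lower at day 2 than at day 0 (65% of all genes called), 1 higher and 7 lower at day 4 than at day 0 (74.1% called), and 3 higher and 6 lower at day 4 than at day 2 (58.5% called). Among these, Cbx7 at day 4 against day 2 lost its call without WT replicate 2 or 3 of day 2 in WT (0.11 each), and without full-KO replicate 3 of day 2 or of day 4 in full-KO (0.09 and 0.10). Phf19 at day 2 against day 0 in full-KO lost it without full-KO replicate 1 of day 0 (-0.41). Ezh1 at day 4 against day 2 in WT gained a call without WT replicate 1 of day 2 or of day 4 (0.30 and 0.24).

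Against WT of the same day, the genes called higher in the knockout genotypes were few before retinoic acid and most of the 9 by day 4. At day 0, 3 genes were higher and 5 lower in alpha-KO than in WT, where 38.6% of all genes were called, and the median of the 9 was -0.17. Of these calls, Mtf2 was lost under RLE scaling, with DESeq2 and without alpha-KO replicate 1 or WT replicate 1 or 2 (0.08 to 0.12), and Eed without alpha-KO replicate 3 (-0.12). For full-KO at day 0, 1 was higher and 1 lower, with 33.9% of all genes called. Cbx7 was also called in full-KO with only the groups compared (0.13) or without WT replicate 1 (0.14). At day 2, 5 were higher and 1 lower in alpha-KO (40.2% of all genes called, 19.9% up), and 7 were higher and none lower in full-KO (47.6% called, 23.8% up). At day 4, 6 were higher and 1 lower in alpha-KO (52.7% called, 28.7% up), with a median log2 fold change of 0.50 against 0.06 for all genes. In full-KO at day 4, 7 were higher and none lower (49.6% called, 25.1% up), with a median of 0.50 against 0.02. Both genotypes were set against the same WT libraries.

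**Figure D1:**
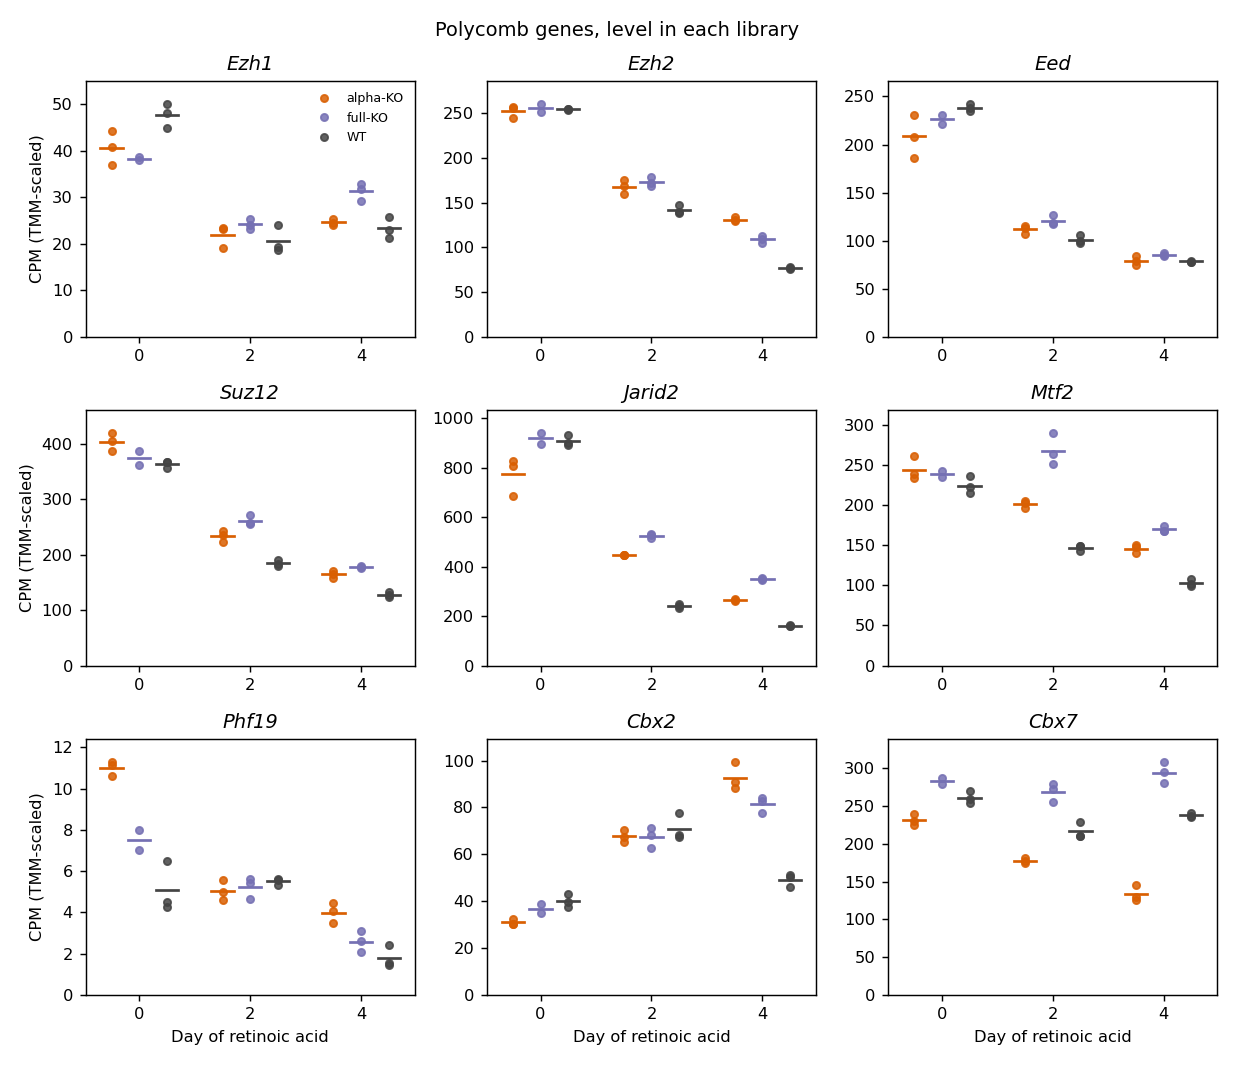
Level of each of the 9 genes in every library (points, CPM after TMM scaling) by day of retinoic acid, with a line at each group's mean; alpha-KO is left, full-KO in the middle and WT right on each day. The 3 Jarid2 points of WT at day 4 lie between 158.7 and 165.8 CPM, below all knockout libraries, while Cbx7 of alpha-KO falls to 125.6 to 145.2 CPM.

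Ezh2, the main H3K27 methyltransferase of dividing cells (ENSMUSG00000029687.16, chr6:47530139-47595341, minus strand, GRCm38, protein coding), overlapped between genotypes at day 0 and then fell less in the knockout cells than in WT. At day 0 it stood at 256.7, 256.3 and 244.7 CPM in alpha-KO, 260.2 and 251.2 in full-KO, and 254.9, 255 and 254.2 in WT. At day 2 the libraries had 159.6, 175.3 and 168.8 CPM in alpha-KO, 169.1, 178.4 and 171.6 in full-KO, and 140.1, 138.8 and 147 in WT. At day 4 they had 133.6, 130.2 and 129.4 CPM in alpha-KO, 109.6, 113.1 and 105.1 in full-KO, and 78.32, 75.56 and 76.81 in WT. Every knockout library lay above every WT library at days 2 and 4, and at day 4 the knockout genotypes did not overlap either. Against WT at day 4 the log2 fold change was 0.77 ± 0.04 in alpha-KO (edgeR, adjusted p = 2.26e-19) and 0.51 ± 0.04 in full-KO (edgeR, adjusted p = 3.00e-13). Between alpha-KO and full-KO at day 4 it was 0.26 ± 0.04. The mean at day 4 was 51.9% of that at day 0 in alpha-KO, 42.7% in full-KO and 30.2% in WT.

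Ezh1, the paralog that is relatively more used in cells that divide little (ENSMUSG00000006920.14, chr11:101191115-101226463, minus strand), was the only PRC2 gene here that was lower at day 4 than at day 2 in none of the genotypes. The day 0 libraries had 36.9, 40.7 and 44.29 CPM in alpha-KO, 37.9 and 38.63 in full-KO, and 49.94, 47.97 and 44.88 in WT, so that both knockout genotypes were below all WT libraries. At day 2 alpha-KO had 19.06, 23.12 and 23.41 CPM, full-KO 23.15, 23.89 and 25.27, and WT 23.9, 19.29 and 18.61. The full-KO and WT libraries overlapped on that day, and Ezh1 was called higher in full-KO (0.22 ± 0.09, edgeR, adjusted p = 0.0408). That call was lost without a filter on low counts (0.21), and without any 1 of the full-KO replicates or WT replicate 2 or 3 of day 2 (0.15 to 0.24). By day 4 alpha-KO stood at 25.27, 24.06 and 24.37 CPM, full-KO at 29.16, 31.66 and 32.82, and WT at 21.18, 25.72 and 22.86. The full-KO libraries thus lay above all others at day 4. Ezh1 was lower than in WT at day 0 in alpha-KO (-0.23 ± 0.08) and in full-KO (-0.32 ± 0.09). The call in alpha-KO was lost when alpha-KO replicate 1 or 2, or WT replicate 1 or 2, was left out (log2 fold change -0.16, -0.22, -0.19 and -0.22). At day 4 it was higher in full-KO (0.42 ± 0.09, edgeR, adjusted p = 9.05e-05), and the value in alpha-KO was 0.07 ± 0.09 and did not pass the test.

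Eed, which binds the methylated histone and stimulates the enzyme (ENSMUSG00000030619.10, chr7:89954654-89980983, minus strand), did not pass the test against WT at day 4 in either knockout genotype. Its day 4 libraries had 74.48, 83.89 and 78.58 CPM in alpha-KO, 87.07, 83.57 and 84.98 in full-KO, and 77.38, 78 and 79.22 in WT. The alpha-KO and WT libraries overlapped, while the full-KO libraries lay above those of WT. The log2 fold change against WT was 0.02 ± 0.06 in alpha-KO and 0.12 ± 0.06 in full-KO, and with only the groups compared the full-KO value was 0.14 and called. At day 2 Eed averaged 111.7 ± 4.40 CPM in alpha-KO, 120.7 ± 4.74 in full-KO and 101 ± 4.01 in WT, and it was higher than in WT in both (0.15 ± 0.05 in alpha-KO and 0.26 ± 0.05 in full-KO). The alpha-KO call at day 2 was lost with DESeq2, and without alpha-KO replicate 1 or 3 or WT replicate 2 or 3 (log2 fold change 0.12 to 0.14). Between day 0 and day 4 Eed fell by 1.40 on the log2 scale in alpha-KO, by 1.41 in full-KO and by 1.61 in WT.

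Suz12, the scaffold of PRC2 (ENSMUSG00000017548.15, chr11:79993106-80034123, plus strand), fell in all genotypes and was higher in both knockout genotypes than in WT at days 2 and 4. At day 0 it averaged 403.4 ± 15.6 CPM in alpha-KO, 374.1 ± 18.9 in full-KO and 363.3 ± 6.81 in WT. At day 4 its libraries had 158, 170.8 and 164.9 CPM in alpha-KO, 179.2, 176 and 177.5 in full-KO, and 132.6, 124.1 and 126.8 in WT. No group overlapped another on that day. The log2 fold change against WT at day 4 was 0.37 ± 0.04 in alpha-KO and 0.47 ± 0.04 in full-KO (edgeR, adjusted p = 1.14e-09 and 8.87e-13). At day 2 it was 0.34 ± 0.04 in alpha-KO and 0.50 ± 0.04 in full-KO.

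Jarid2, which helps to bring PRC2 to its targets in ESC (ENSMUSG00000038518.15, chr13:44729474-44921643, plus strand), showed the widest gap between knockout and WT cells among the 7 PRC2 genes at day 2. At day 0 the libraries had 825, 805.8 and 686.8 CPM in alpha-KO, 938.5 and 897.3 in full-KO, and 891, 932 and 897.9 in WT. At day 2 they had 445.3, 447.3 and 446.4 CPM in alpha-KO, 516, 533.4 and 528.2 in full-KO, and 242, 250.2 and 232 in WT. At day 4 the values were 259.4, 265.8 and 267.8 CPM in alpha-KO, 347.1, 353.7 and 348.2 in full-KO, and 158.7, 165.8 and 161.2 in WT. The alpha-KO libraries were below all others at day 0. From day 2 the order was full-KO, then alpha-KO, then WT, with no overlap. The log2 fold change against WT at day 2 was 0.89 ± 0.04 in alpha-KO (edgeR, adjusted p = 3.47e-21) and 1.12 ± 0.04 in full-KO (edgeR, adjusted p = 4.08e-25). At day 4 it was 0.71 ± 0.05 in alpha-KO and 1.11 ± 0.05 in full-KO. At day 2 the cells held 57.8% of their day 0 mean in alpha-KO and 57.3% in full-KO, against 26.6% in WT.

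Mtf2, also known as Pcl2, which binds DNA rich in unmethylated CpG (ENSMUSG00000029267.17, chr5:108065674-108109004, plus strand), rose in full-KO cells between day 0 and day 2, the only such rise among the PRC2 genes in any genotype. The full-KO libraries had 242.6 and 235.1 CPM at day 0 and 263.4, 250.6 and 289 at day 2. That change was 0.16 ± 0.05 on the log2 scale (edgeR, adjusted p = 0.00584), and it was not called when full-KO replicate 2 of day 0 or replicate 3 of day 2 was left out (0.12 and 0.11). On the same day alpha-KO had 195.8, 205.3 and 202.7 CPM and WT 149.2, 149.1 and 142.1, so that no genotypes overlapped. The log2 fold change against WT at day 2 was 0.46 ± 0.05 in alpha-KO and 0.87 ± 0.05 in full-KO (edgeR, adjusted p = 9.84e-11 and 6.36e-20). At day 4 Mtf2 stood at 147.1, 149.7 and 139.7 CPM in alpha-KO, 173.6, 167.2 and 167.9 in full-KO, and 107.8, 102.1 and 99.38 in WT, with log2 fold changes of 0.50 ± 0.05 in alpha-KO and 0.72 ± 0.05 in full-KO. Mtf2 shares 395 exon bases with Tmed5 on the opposite strand, and the strand setting of the counting is not given in the sources used here. Tmed5 changed by -0.72 in alpha-KO and -0.69 in full-KO against WT at day 4, the other way from Mtf2. Between day 0 and day 2 in full-KO, however, Tmed5 rose by 0.95 on the log2 scale, the same way as Mtf2. The part of Tmed5 reads in the Mtf2 counts was not tested.

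Phf19, also known as Pcl3 (ENSMUSG00000026873.9, chr2:34893757-34914026, minus strand), was low throughout and was higher in the knockout cells before retinoic acid. At day 0 it had 11.27, 10.63 and 11.16 CPM in alpha-KO, 7.973 and 7 in full-KO, and 6.483, 4.243 and 4.488 in WT, with no overlap between groups. The log2 fold change against WT was 1.11 ± 0.16 in alpha-KO (edgeR, adjusted p = 1.88e-07) and 0.56 ± 0.19 in full-KO (edgeR, adjusted p = 0.0166). The full-KO call was lost without full-KO replicate 1, WT replicate 2 or WT replicate 3 of day 0 (0.43, 0.44 and 0.48). At day 2 the groups overlapped, at 4.581 to 5.592 CPM in alpha-KO, 4.66 to 5.633 in full-KO and 5.348 to 5.621 in WT. At day 4 the libraries had 3.466, 4.055 and 4.437 CPM in alpha-KO, 3.072, 2.066 and 2.594 in full-KO, and 1.523, 1.429 and 2.413 in WT. The difference was 1.14 ± 0.22 in alpha-KO and called, and 0.50 ± 0.23 in full-KO and not called. Without WT replicate 3 or full-KO replicate 2 of day 4, the full-KO value was 0.80 or 0.64 and called.

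**Figure D2:**
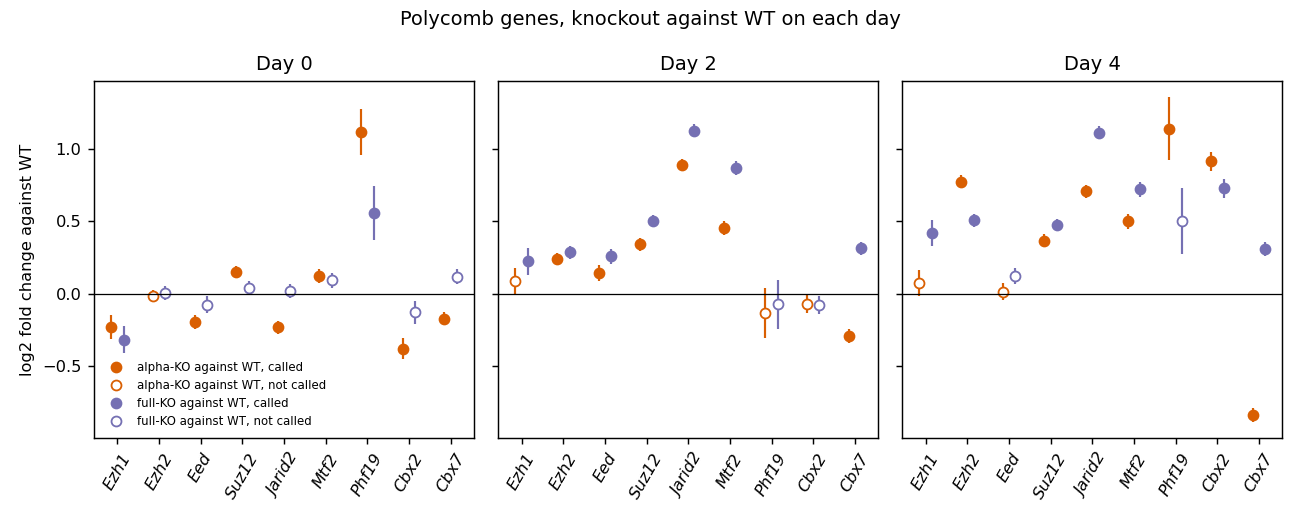
Log2 fold change of each gene in alpha-KO (orange) and full-KO (violet) against WT on the same day, with SE bars; filled points passed edgeR's test at an adjusted p under 0.05 and open points did not. Cbx7 at day 4 lies at -0.84 in alpha-KO and at 0.31 in full-KO, the widest split between the genotypes.

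Cbx2, a CBX protein of canonical PRC1 known for compacting chromatin (ENSMUSG00000025577.7, chr11:119022962-119031270, plus strand), was higher at day 2 than at day 0 in all genotypes, and between days 2 and 4 it went up further in both knockout genotypes and down in WT. The day 0 libraries had 32.25, 30.42 and 30.13 CPM in alpha-KO, 38.67 and 34.8 in full-KO, and 43.16, 39.79 and 37.49 in WT. At day 2 they had 70.41, 67.42 and 65.05 CPM in alpha-KO, 68.17, 71.09 and 62.6 in full-KO, and 67.25, 68.03 and 77.7 in WT, and all 3 groups overlapped. At day 4 they had 88.15, 90.96 and 99.22 CPM in alpha-KO, 84.11, 82.64 and 77.7 in full-KO, and 45.98, 51.33 and 50.27 in WT. Every knockout library then lay above every WT library. Between day 2 and day 4 Cbx2 rose by 0.46 ± 0.06 on the log2 scale in alpha-KO and by 0.28 ± 0.06 in full-KO, while it fell by 0.53 (SE 0.07) in WT. The change from day 0 to day 4 exceeded that of WT by 1.29 ± 0.10 in alpha-KO (edgeR, adjusted p = 2.28e-15) and by 0.85 ± 0.10 in full-KO (edgeR, adjusted p = 3.42e-09), a test of the difference itself. At day 0 Cbx2 was lower in alpha-KO than in WT (-0.38 ± 0.07), and the full-KO value of -0.13 ± 0.08 was not called.

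Cbx7, the main CBX protein of canonical PRC1 in mouse ESC (ENSMUSG00000053411.16, chr15:79915807-79971119, minus strand), lay on opposite sides of WT in the knockout genotypes at days 2 and 4. At day 0 it stood at 240.1, 224.6 and 230.7 CPM in alpha-KO, 279.2 and 287.4 in full-KO, and 269.5, 254.7 and 258.9 in WT. At day 2 it had 181.2, 176.7 and 174.2 CPM in alpha-KO, 279.5, 272.2 and 255.6 in full-KO, and 229.1, 210.1 and 210.7 in WT. At day 4 the libraries held 145.2, 125.6 and 129.6 CPM in alpha-KO, 280.2, 295.6 and 307.9 in full-KO, and 236.8, 236 and 241 in WT. On each day full-KO was highest and alpha-KO lowest, with no overlap between groups. Against WT at day 4, Cbx7 fell by 0.84 in alpha-KO (SE 0.05, edgeR, adjusted p = 1.09e-19) and rose by 0.31 ± 0.05 in full-KO (edgeR, adjusted p = 1.88e-07). Between alpha-KO and full-KO the log2 fold change was -0.29 ± 0.05 at day 0, -0.60 ± 0.05 at day 2 and -1.14 ± 0.05 at day 4. From day 0 to day 4 Cbx7 fell by 0.80 in alpha-KO, changed by 0.06 ± 0.05 in full-KO without passing the test, and fell by 0.13 in WT. Cbx7 shares 100 exon bases with Apobec3 on the opposite strand. Against WT at day 4 Apobec3 changed by -0.80 in alpha-KO, the same way as Cbx7, and by -0.24 in full-KO, the other way. With the strand setting of the counting not given, the part of Apobec3 reads in the Cbx7 counts was not tested.

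The upstream sequences of Ezh2 and Cbx7 are shown because both passed the test in alpha-KO cells at day 4 in opposite directions, Ezh2 above WT and Cbx7 below it. Phf19, which has few reads, and Cbx2 lay further above WT than Ezh2 (1.14 and 0.91 on the log2 scale). RefSeq windows of 300 bases (250 before and 50 after an annotated start, build GRCm38.p6) were at hand for 8 of the 9 genes, all but Cbx2, in 10 windows. Both stretches printed below lie inside the GENCODE spans given above for these genes. They precede a RefSeq start, not the outermost GENCODE start, which for Cbx7 lies far upstream at chr15:79971119. The 250 bases before the start are printed 5′ to 3′ on the strand of the gene, with capitals marking the CCAAT box on either strand (CCAAT or ATTGG).
Ezh2, chr6:47595031-47595280, minus strand: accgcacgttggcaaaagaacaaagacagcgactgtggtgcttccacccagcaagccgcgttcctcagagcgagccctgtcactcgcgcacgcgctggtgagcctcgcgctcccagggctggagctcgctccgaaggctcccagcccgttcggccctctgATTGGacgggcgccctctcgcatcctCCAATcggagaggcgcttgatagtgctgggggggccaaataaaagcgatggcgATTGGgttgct
Cbx7, chr15:79932647-79932896, minus strand: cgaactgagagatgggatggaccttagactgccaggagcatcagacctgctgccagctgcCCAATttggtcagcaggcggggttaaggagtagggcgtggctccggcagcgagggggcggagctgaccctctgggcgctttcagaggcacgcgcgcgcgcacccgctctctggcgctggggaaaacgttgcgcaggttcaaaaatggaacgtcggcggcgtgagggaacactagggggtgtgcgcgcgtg
The Ezh2 window holds 3 CCAAT boxes and the Cbx7 window 1. One of the Mtf2 windows also holds 3, windows of Eed, Suz12 and Jarid2 hold 1, and those of Ezh1 and Phf19 hold none. Of 32851 windows of this length, 37.4% hold at least 1 and 3.37% hold at least 3, and this motif was chosen after the sequences were seen. Ezh2 was the only 1 of the 8 genes with the E2F-like letters TTGGCGC (either strand), which 2.45% of all windows hold, and its match lies among the 50 bases after the start that are not printed. No window of the 8 genes held TTCGCGC (1.59% of all windows), the E-box CACGTG (7.15%) or a pair of AGGTCA spaced by 5 bases as in retinoic acid response elements (0.00913%). The windows of the 2 genes are both CpG-rich, with 31 CpG in that of Ezh2 and 33 in that of Cbx7, against a median of 7 over all windows. The trait is shared by the other genes, whose windows hold 17 (Eed) to 41 (Suz12), except an Mtf2 window with 2.

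The ratio of Cbx2 to Cbx7 within a library, per length of exon, describes the Cbx switch without the scaling between libraries. As log2 values it was -2.29, -2.28 and -2.33 in alpha-KO, -2.24 and -2.44 in full-KO, and -2.03, -2.07 and -2.18 in WT at day 0. At day 4 it was -0.11, 0.14 and 0.22 in alpha-KO, -1.13, -1.23 and -1.38 in full-KO, and -1.76, -1.59 and -1.65 in WT. At day 4, 2 of the 3 alpha-KO libraries thus had more Cbx2 than Cbx7 per length, and no library of another group did. The ratio at day 4 was 5.21 times that at day 0 in alpha-KO, 2.14 times in full-KO and 1.34 times in WT, where it had been higher at day 2. Averaged over days, the log2 ratio differed from WT by 0.59 in alpha-KO (two-sided exact permutation test within days, p = 0.046, adjusted over 4 tests 0.0743) and by -0.07 in full-KO (exact permutation test, p = 0.513). Neither difference passed after adjustment. The alpha-KO difference was -0.20 at day 0, 0.22 at day 2 and 1.75 at day 4. The full-KO difference was -0.25 at day 0, -0.39 at day 2 and 0.42 at day 4, so its mean joins values of opposite sign. Within 1 day such a design cannot give an exact permutation p below 0.1. Without day 4 the mean difference was 0.01 in alpha-KO, and in full-KO it was -0.32 (exact permutation test, p = 0.005). That p is the smallest this setting allows and was not adjusted.

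**Figure D3:**
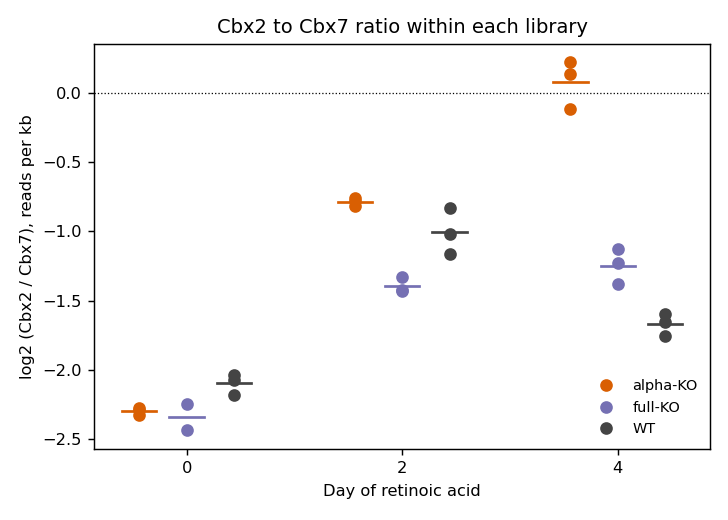
Log2 ratio of Cbx2 to Cbx7 (reads per kb of exon) in each library by day of retinoic acid, with lines at group means; alpha-KO is left, full-KO in the middle and WT right. The dotted line marks equal levels, which only 2 alpha-KO libraries of day 4 exceed.

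Cbx8, another CBX gene of canonical PRC1, was low at day 0, with 0.6973, 0.646 and 0.3618 CPM in alpha-KO, 0.4165 and 0.5283 in full-KO, and 0.6425, 0.861 and 0.528 in WT. At day 4 it had 12.29, 11.23 and 13.38 CPM in alpha-KO, 11.36, 12.65 and 10.21 in full-KO, and 12.55, 15.72 and 12.64 in WT, and the groups overlapped. It rose in WT by day 4 with a log2 fold change of 4.31 ± 0.21 (edgeR, adjusted p = 7.35e-23). Against WT at day 4 the value was -0.15 ± 0.14 in alpha-KO and -0.26 ± 0.14 in full-KO, and neither passed the test. At day 2 Cbx8 was called higher than WT in both, by 0.42 ± 0.17 in alpha-KO and 0.60 ± 0.16 in full-KO. Cbx6 was higher than WT at day 4 in alpha-KO (0.24 ± 0.06), and its value in full-KO (-0.07 ± 0.06) did not pass. At day 2 Cbx6 was called higher in full-KO (0.31 ± 0.07), and its alpha-KO value (0.12 ± 0.07) did not pass.

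For the methyltransferase pair, the log2 ratio of Ezh1 to Ezh2 averaged over days differed from WT by -0.35 in alpha-KO (two-sided exact permutation test within days, p = 0.00325, adjusted over 4 tests 0.013). The full-KO difference was -0.15 (exact permutation test, p = 0.0558, adjusted 0.0743) and did not pass. By day, the alpha-KO difference was -0.22 at day 0, -0.15 at day 2 and -0.69 at day 4, and without day 4 its mean was -0.19 (exact permutation test, p = 0.065). From day 0 to day 4 this ratio changed by 0.22 on the log2 scale in alpha-KO, 0.93 in full-KO and 0.69 in WT.

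The change over days was also compared with that of WT. For day 4, 7 genes had a difference above 0 that passed the test and 1 below 0 in alpha-KO (44% of all genes called, 24.2% up), and 7 and none in full-KO (35.2% called, 19.5% up). For day 2 the counts were 7 and 1 in alpha-KO (32.2% of all genes called) and 7 and none in full-KO (28.6% called). Jarid2 had the largest difference in full-KO, 1.11 ± 0.07 at day 2 and 1.09 ± 0.07 at day 4, and in alpha-KO it had 1.12 ± 0.06 and 0.94 ± 0.06. The 1 gene below 0 in alpha-KO was Phf19 at day 2 (-1.24 ± 0.24) and Cbx7 at day 4 (-0.66 ± 0.07). Some of these calls were lost or gained with single libraries left out or under other settings. Ezh1 in alpha-KO lost its call at day 2 (0.31) without a filter on low counts, with a replicate block and with only the groups compared (0.31 in each, edgeR, adjusted p = 0.0577, 0.0535 and 0.0745). It was also lost there without replicate 1 or 2 of either genotype at day 0 or replicate 2 or 3 of either at day 2 (0.24 to 0.31). At day 4 (0.30) it was lost without a filter on low counts (0.29), with only the groups compared (0.27), and without replicate 1 or 2 of either at day 0, alpha-KO replicate 1 or 3 or WT replicate 1 or 3 of day 4 (0.23 to 0.30). Cbx7 in full-KO lost its call at day 2 (0.19) without a filter on low counts (0.17), and without full-KO replicate 1 or 2 of day 0 or of day 2, WT replicate 1 of day 0, or WT replicate 2 or 3 of day 2 (0.16 to 0.20). At day 4 (0.19) it was lost without replicate 1 of either genotype at day 0, full-KO replicate 3 or WT replicate 2 of day 4 (0.16 to 0.20). Cbx2 in alpha-KO was not called at day 2 without WT replicate 1 of day 0 (0.25), nor Eed in alpha-KO at day 4 with only the groups compared (0.18) or without alpha-KO replicate 3 of day 0 or replicate 2 of day 4 (0.13 and 0.16). Eed in full-KO at day 4, not called here, was called under RLE scaling, with the filter set at 1 CPM on average, with only the groups compared and without full-KO replicate 1 of day 0 (0.21, 0.21, 0.24 and 0.26). Phf19 in full-KO at day 2, also not called, was called with a replicate block (-0.65) and without WT replicate 1 of day 0 (-0.85).

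The 2 knockout genotypes also differed from each other in these genes. At day 0, 1 gene was higher and 3 lower in alpha-KO than in full-KO (29% of all genes called), at day 2 none and 4 (25.3%), and at day 4, 3 and 5 (32.7%). At day 4 alpha-KO was higher in Ezh2 (0.26 ± 0.04), Phf19 (0.63 ± 0.20) and Cbx2 (0.19 ± 0.06), and lower in Cbx7, Jarid2 (-0.40 ± 0.04), Ezh1 (-0.35 ± 0.09), Mtf2 (-0.22 ± 0.05) and Suz12 (-0.11 ± 0.04). Without alpha-KO replicate 3 of day 4 only 5 of these 8 were called, with Phf19 at 0.55, Cbx2 at 0.13 and Suz12 at -0.12 not called. Suz12 was also not called under RLE scaling, DESeq2, no filter on low counts or a replicate block, nor without alpha-KO replicate 1 or any 1 of the full-KO replicates (-0.12 to -0.08). Phf19 was not called without full-KO replicate 2 (0.49), nor Cbx2 without full-KO replicate 3 (0.15). At day 0, where Phf19 and Cbx2 were called, Phf19 lost its call without full-KO replicate 2 (0.47) and Cbx2 without alpha-KO replicate 2 or full-KO replicate 1 (-0.22 and -0.14). At day 2 Cbx7 (-0.60), Mtf2 (-0.41 ± 0.05), Jarid2 (-0.24 ± 0.04) and Suz12 (-0.16 ± 0.04) were lower in alpha-KO.

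Of 49 other Polycomb genes, lists of which cover further PRC2 and PRC1 subunits and opposing enzymes, all were tested, and 24 rose and 19 fell in WT by day 4 (40.7% of all genes up and 36.7% down, median 0.19 against 0.10 for all genes). Against WT at day 4, 23 were higher and 12 lower in alpha-KO (28.7% of all genes up and 24% down, median 0.14 against 0.06), and 17 were higher and 16 lower in full-KO (25.1% up and 24.5% down, median -0.02 against 0.02). At day 0, 9 were higher and 22 lower in alpha-KO (38.6% of all genes called) and 6 and 15 in full-KO (33.9%), and at day 2, 19 and 10 in alpha-KO (40.2%) and 17 and 16 in full-KO (47.6%). Among 7 other PRC2 genes, Epop, an accessory protein of the Polycomb-like form that is high in ESC, fell by 2.85 on the log2 scale in WT by day 4. Epop then stood at 68.56, 77.81 and 77.81 CPM in alpha-KO, 91.3, 90.44 and 85.88 in full-KO, and 52.21, 51.8 and 47.22 in WT, above WT by 0.57 in alpha-KO and 0.83 in full-KO on the log2 scale.

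Several PRC1 genes moved in opposite directions over the WT time course. Bmi1 (Pcgf4), a partner of RNF2, rose by 2.63 while Pcgf6, a subunit of variant PRC1 in ESC, fell by 1.49. Among Polyhomeotic genes, Phc1 fell by 3.86 while Phc2 and Phc3 rose by 2.04 and 1.84. L3mbtl2 of variant PRC1 fell by 2.13. The counts that follow stand beside 28.7% of all genes up and 24% down in alpha-KO against WT at day 4, and 25.1% up and 24.5% down in full-KO, and in lists this short several are near those shares. Against WT at day 4, 5 of 8 core PRC1 and Pcgf genes were higher and 1 lower in alpha-KO, and 3 were higher and 2 lower in full-KO. The 7 accessory genes of canonical PRC1 had 1 higher and 3 lower in alpha-KO and 2 higher and 3 lower in full-KO, and the 15 variant PRC1 genes had 7 and 3 in alpha-KO and 6 and 6 in full-KO. Of 6 genes of PR-DUB, which removes the histone mark set by PRC1, 4 were higher and 1 lower in alpha-KO and 3 higher and 2 lower in full-KO. The Cbx1, Cbx3 and Cbx5 genes, which code for HP1 proteins that bind another histone mark, were higher in both at day 4 (0.47, 0.46 and 0.39 in alpha-KO, 0.38, 0.30 and 0.18 in full-KO).

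Rnf2 (RING1B), the main ubiquitin ligase of PRC1 in ESC, was higher than in WT in alpha-KO on every day, with 310.3, 300.7 and 286.5 CPM in alpha-KO, 138.2 and 147.1 in full-KO, and 127.7, 134.4 and 137.7 in WT at day 0. Its log2 fold change in alpha-KO was 1.17, 1.15 and 1.22 on days 0, 2 and 4, against 0.10 (not called), -0.24 and -0.29 in full-KO. Rnf2 lies at chr1:151458004-151500955, and the 1115 tested genes of chromosome 1 had a median of 0.41 in alpha-KO and 0.27 in full-KO at day 0, against -0.03 and -0.01 for all genes. Uty, an H3K27 demethylase relative on chromosome Y, stood at 3.312, 3.465 and 3.359 CPM in alpha-KO, 18.86 and 18.82 in full-KO, and 25, 26.88 and 28.78 in WT at day 0. Of the same list, Kdm6a was higher than WT at day 2 in alpha-KO (0.33) and full-KO (0.49). Kdm6b was lower in full-KO on that day (-0.37), and its alpha-KO value (-0.02) was not called. The 7 tested genes of chromosome Y had medians against WT of -2.90 in alpha-KO and -1.004 in full-KO at day 0. At day 4 these medians were -3.05 in alpha-KO and -0.288 in full-KO. None of the 9 genes lies on either chromosome, and the part of these chromosomes in the 9 genes' values was not tested. Medians of the chromosomes that carry the 9 genes were not taken.

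The Ink4-Arf locus, a classic target of Polycomb silencing that codes for inhibitors of the cell cycle, rose in WT by day 4 and was lower in both knockout genotypes. Cdkn2a stood at 42.6, 39.45 and 37.81 CPM in alpha-KO, 66.08, 61.05 and 70.43 in full-KO, and 105.8, 107.5 and 108.4 in WT at day 4. Cdkn2b had 28.29, 21.1 and 22.76 CPM in alpha-KO, 36.87, 37.08 and 44.1 in full-KO, and 99.71, 95.09 and 92.43 in WT. No groups overlapped for either gene. The log2 fold change against WT at day 4 was -1.42 in alpha-KO and -0.70 in full-KO for Cdkn2a, and -1.995 in alpha-KO and -1.28 in full-KO for Cdkn2b. Both genes were also called lower at days 0 and 2 in both genotypes. The change from day 0 to day 4 differed from that of WT by -1.08 for Cdkn2a and -1.07 for Cdkn2b in alpha-KO, both called. In full-KO the difference for Cdkn2a was -0.23 ± 0.15 and not called. For Cdkn2b in full-KO it was 0.67 ± 0.20 and called, so Cdkn2b rose more there than in WT, from a lower level. The part of Polycomb genes or of cell states in the values of Cdkn2a and Cdkn2b was not tested.

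Marker lists of cell states also differed between the genotypes, some with the PRC2 genes and some the other way. Of all genes, 52.7% were called in alpha-KO (28.7% up and 24% down) and 49.6% in full-KO (25.1% up and 24.5% down) against WT at day 4. At day 0 the shares called were 38.6% in alpha-KO (20.9% down) and 33.9% in full-KO (17.7% down). Of 10 proliferation genes all fell in WT by day 4 (median -2.23), where 36.7% of all genes fell. Against WT at day 4, 10 of them were higher in alpha-KO and 9 in full-KO. Their sum then ran from 2136 to 2224 CPM in alpha-KO, 1923 to 2003 in full-KO and 1061 to 1116 in WT. All 5 ESC markers were higher in both genotypes at day 4, summing to 213.2 to 229.7 CPM in alpha-KO, 332.9 to 340 in full-KO and 56.06 to 63.29 in WT. Of 7 primitive endoderm markers 6 were higher in each, with sums of 493.6 to 542.7 CPM in alpha-KO, 403.5 to 450.8 in full-KO and 252.5 to 268 in WT. Of 7 neuron markers 5 were higher and 1 lower in alpha-KO and 4 and 1 in full-KO, with sums of 131.4 to 176.5 CPM in alpha-KO, 106.2 to 107.5 in full-KO and 112 to 116.1 in WT. All 8 fibroblast markers were lower in both genotypes at day 0, with sums of 1137 to 1778 CPM in alpha-KO, 227 to 343.9 in full-KO and 2149 to 2841 in WT. At day 4, 5 were lower in alpha-KO, and 5 lower and 1 higher in full-KO, with sums of 648.7 to 733.3 CPM in alpha-KO, 523.8 to 572.1 in full-KO and 1307 to 1390 in WT. Of 5 retinoic acid response genes, 3 were higher and 1 lower in alpha-KO and 3 higher in full-KO at day 4, with sums of 523.9 to 529.7 CPM in alpha-KO, 514.6 to 525 in full-KO and 372.5 to 399 in WT. No marker of these lists had 0 reads in a whole group, except Dcx of neurons in full-KO at day 0. The part of these cells and states in the values of the 9 genes was not tested.

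Across the 9 group means, the genes whose log2 CPM most resembled Ezh2 were Fanca (Pearson r = 0.998), Spag5 (0.997) and Tpst1 (0.997), of 10696 genes compared. For Cbx2 they were Fign (0.990), Rfx3 (0.980) and Rimklb (0.976). For Cbx7 they were Zfp750 (0.883), Klhl8 (0.826) and Plekha7 (0.818). Within the 9 genes, Suz12 followed Ezh2 (0.972) and Jarid2 (0.973), and Cbx7 followed Ezh2 weakly (0.186). Cbx2 ran against Eed (-0.829). These values rest on 9 points that share days and libraries, and they describe these groups alone.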

How the data were processed

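Stranded poly(A) RNA-seq gave 26 libraries, which the labels group by genotype and day. The authors deposited raw read counts per gene. FastQC and STAR 2.7.1a with build mm10 are named in the submitters' processing notes. What tool counted reads, with which strand setting and annotation, is not given in the sources used here. Names and coordinates came from GENCODE M21 (GRCm38) for 55230 of 55471 Ensembl IDs, matched without version.

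In edgeR 4.0.16 (R 4.3.3), filterByExpr kept 18412 genes, TMM scaled the libraries, and a quasi-likelihood model with 1 mean per group was fitted (17 residual degrees of freedom) and checked on simulated data. Adjusted p-values cover all genes tested. Nothing says that replicates were separate cultures, so p-values reflect only the spread among these libraries, which may be technical. Ratios were taken within each library and tested by exact permutation of genotypes within days, 4 tests in all. Alternatives were RLE scaling, DESeq2 1.42.0, other filters, only the groups compared, a replicate block and each library left out in turn. Python 3.11.15 drew the figures.

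The 9 genes and all lists were chosen with earlier results of these data known. Named genes are these 9, up to 4 called genes of largest change from each other list in a comparison, and the 3 likest in pattern with a group mean of at least 10 CPM. Some lists of 5 or fewer genes are named in full. Genes not named enter only the counts and sums. The CCAAT motif was added after seeing the data. The result of 1 gene of the lists is not reported here.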

Additional observations from a re-analysis of the deposited data

Results flagged for a closer look

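For each of the 9 genes, the change from day 0 in each knockout genotype was compared with that in WT, and 30 of 36 such differences passed edgeR's test of the difference itself (adjusted p under 0.05). Of all genes, 32.2% passed the same test at day 2 and 44% at day 4 in alpha-KO, and 28.6% at day 2 and 35.2% at day 4 in full-KO. The differences below are log2 values, and a positive one means that the gene fell less or rose more than in WT. All share the WT libraries.

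For Jarid2 the difference at day 2 was 1.12 in alpha-KO and 1.11 in full-KO, and at day 4 it was 0.94 in alpha-KO and 1.09 in full-KO. For Ezh2 it was 0.25 in alpha-KO and 0.28 in full-KO at day 2, and 0.78 in alpha-KO and 0.50 in full-KO at day 4. Mtf2 had 0.33 in alpha-KO and 0.77 in full-KO at day 2, and 0.38 and 0.63 in the same order at day 4. Suz12 had 0.19 in alpha-KO and 0.46 in full-KO at day 2, and 0.21 in alpha-KO and 0.43 in full-KO at day 4. Ezh1 had 0.31 in alpha-KO and 0.54 in full-KO at day 2, and 0.30 in alpha-KO and 0.74 in full-KO at day 4. Eed had 0.34 in alpha-KO and 0.33 in full-KO at day 2, and 0.21 in alpha-KO at day 4.

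For Cbx2 the difference was 0.31 in alpha-KO at day 2, and 1.29 in alpha-KO and 0.85 in full-KO at day 4. For Cbx7 it was -0.66 in alpha-KO at day 4, and 0.19 in full-KO at day 2 and 0.19 at day 4. Phf19 in alpha-KO at day 2 had -1.24, from a day 0 level above that of WT.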

How the results depend on the processing

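Of 2538 fold changes of the 9 genes recomputed under other settings, 2435 kept their direction and their side of the threshold, 84 lost the call, 19 gained one and none turned round. Each gene had 282 of these recomputed fold changes, which are comparisons under the various settings. Ezh2 and Jarid2 kept every call in them, while Ezh1 lost 31. The count of the 9 genes called ran from 1 to 3 for full-KO against WT at day 0 when single libraries were left out (2 with all), and from 5 to 8 for alpha-KO against full-KO at day 4 (8 with all). The count over all genes moved by over 1.5 times once: 5344 genes were called between alpha-KO and full-KO at day 0, and 3521 without full-KO replicate 1. Without a filter on low counts the median of all genes shifted by up to -0.10.

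The Cbx2 to Cbx7 difference in alpha-KO (0.59, exact permutation p = 0.046) was 0.77 without day 2 (permutation p = 0.1), 0.0084 without day 4 (p = 0.92) and 0.59 with a replicate block (sign-flip permutation, p = 0.109). It ran from 0.56 to 0.62 with single libraries left out, and did not pass without WT replicate 3 of day 0 (permutation p = 0.0565) or WT replicate 1 of day 2 (permutation p = 0.066). In full-KO it was -0.32 without day 4 (permutation p = 0.005). The Ezh1 to Ezh2 difference in alpha-KO was -0.19 without day 4 (permutation p = 0.065). In full-KO it was -0.15 with 5 counts added (permutation p = 0.0495), and ran from -0.18 to -0.11 with single libraries left out, passing without WT replicate 3 of day 2, WT replicate 1 of day 4 or full-KO replicate 3 of day 4. The cause of these changes was not tested beyond the smaller number of days or libraries.

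Replicate numbers gave little sign of pairing in the series as a whole. Deviations of libraries with the same number and genotype correlated at -0.09 to 0.09 over 25 pairs. Those with unlike numbers in the same genotype correlated at -0.12 to 0.10 over 50 pairs. Between days 2 and 4 of alpha-KO, same-number pairs were all positive (0.08, 0.09 and 0.05) and the others negative. Deviations from a group's mean cancel within the group, so the negative values largely follow from the positive ones and are no separate sign. Pairing there cannot be settled. With the number as a block, 3 calls of the 9 genes changed. Suz12 between alpha-KO and full-KO at day 4 lost its call (edgeR, adjusted p = 0.0527), as did Ezh1 in the alpha-KO change to day 2 against that of WT (adjusted p = 0.0535), and Phf19 in the full-KO change to day 2 gained one (-0.65, adjusted p = 0.0479).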
